A study of Homo sapiens with 6 samples.

Results

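The genes described here are 32 of the 37871 listed in a table of gene counts from T24 cells, and they cover how a cell makes, senses, moves and exports cholesterol. They were taken by symbol from a fixed list and all 32 were found: 18 enzymes of cholesterol synthesis, 5 genes of the SREBP system, 3 genes of sterol transport, 2 liver X receptors and 4 LXR targets. Of these, 31 had enough counts to be tested, and ABCG1 did not.

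Cholesterol is built from acetyl-CoA through mevalonate, farnesyl diphosphate and squalene, and then through a series of sterols that end in cholesterol. When sterols in the endoplasmic reticulum run low, the escort protein SCAP carries the transcription factors SREBP1 and SREBP2 to the Golgi for cleavage, and SREBP2 in particular turns on the synthesis genes. When oxidised sterols build up, the liver X receptors (LXR) turn on genes of cholesterol export and of reduced lipoprotein uptake.

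RNA was sequenced from T24, an established human bladder carcinoma line of epithelial origin, 1 line only, grown in high glucose DMEM. The groups were 3 libraries of cells given LPS plus nigericin and 3 libraries of cells given vehicle. LPS (lipopolysaccharide) is a bacterial cell wall component and nigericin is a potassium ionophore. The labels give no dose, no time and no group with either agent alone, so their parts cannot be told apart. Nothing in the labels ties the replicates to separate cultures. The p-values therefore rest on differences among libraries that may be technical.

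Total counts were 66180407 to 86594539 in the treated libraries and 81917343 to 89152224 in the vehicle libraries. Levels are CPM, counts relative to the library total after TMM scaling, and fold changes are treated over vehicle. Keratins KRT7, KRT8, KRT18 and KRT19, markers of epithelial cells, exceeded 10 CPM in every library. The other 2 of the 6 epithelial markers were low, with CDH1 at or near 0 and EPCAM under 4 CPM. The summed epithelial markers were 3510 to 4512 CPM in treated and 6535 to 9536 CPM in vehicle libraries. Summed markers of leukocytes (4 genes, 2.77 to 3.69 CPM treated, 4.87 to 12.0 CPM vehicle), fibroblasts (5 genes, 3.20 to 3.76 CPM treated, 3.65 to 4.86 CPM vehicle) and endothelial cells (4 genes, under 1 CPM throughout) were low, with PTPRC, DCN, LUM and KDR at or near 0. CD68 made up most of the leukocyte sum, at 1.96, 2.97 and 2.51 CPM in treated and 4.83, 11.8 and 5.12 CPM in vehicle libraries. LYZ, under 1 CPM throughout, was higher in treated libraries (log2 3.34). COL1A1, at 3.07 to 4.74 CPM, made up most of the fibroblast sum. In bulk samples, fewer cells and less RNA per cell cannot be told apart.

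Promoter stretches of the 5 genes that anchor the results are shown first, because SREBP and LXR often act through short sequence elements near gene starts. They were read from the RefSeq promoter table on GRCh38.p14, 5′ to 3′ on the gene's strand, from 160 bases before the start to 10 bases after it. The bases that follow the MYLIP start were not found in a GENCODE 29 transcript of that gene, whereas those of the other genes shown were. Capitals mark matches to the motifs searched on both strands: CCAAT (read as ATTGG on the other strand), the sterol regulatory element TCACNCCAC, the E-box CACGTG, and an LXR-type repeat of AGGTCA hexamers spaced by 4 bases with up to 1 mismatch in each. HMGCS1 lies at chr5:43313403-43313572 (minus strand), NSDHL at chrX:152830903-152831072 (plus), SREBF2 at chr22:41832945-41833114 (plus), ABCA1 at chr9:104928146-104928315 (minus) and MYLIP at chr6:16128926-16129095 (plus).
HMGCS1: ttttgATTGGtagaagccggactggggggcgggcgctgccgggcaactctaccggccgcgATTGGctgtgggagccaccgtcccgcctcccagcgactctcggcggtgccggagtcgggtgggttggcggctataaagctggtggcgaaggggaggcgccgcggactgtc
NSDHL: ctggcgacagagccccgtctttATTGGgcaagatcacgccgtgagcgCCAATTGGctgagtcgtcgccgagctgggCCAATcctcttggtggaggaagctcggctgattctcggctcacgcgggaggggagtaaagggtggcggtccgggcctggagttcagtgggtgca
SREBF2: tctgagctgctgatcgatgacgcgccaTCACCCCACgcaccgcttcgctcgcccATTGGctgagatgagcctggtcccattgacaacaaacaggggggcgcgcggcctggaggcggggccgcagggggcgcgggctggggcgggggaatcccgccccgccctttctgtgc
ABCA1: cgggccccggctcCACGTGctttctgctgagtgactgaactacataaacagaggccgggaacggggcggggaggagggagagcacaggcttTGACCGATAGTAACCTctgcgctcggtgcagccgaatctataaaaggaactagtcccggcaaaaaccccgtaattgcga
MYLIP: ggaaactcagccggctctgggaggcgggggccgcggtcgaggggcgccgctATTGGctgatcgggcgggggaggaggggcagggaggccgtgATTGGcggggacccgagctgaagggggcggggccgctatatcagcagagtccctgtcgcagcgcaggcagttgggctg

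In these windows HMGCS1 and MYLIP each held CCAAT boxes on the strand opposite the gene, and NSDHL held an overlapping pair, CCAATTGG. SREBF2 was the only one of the 28 members in the promoter table with a match to TCACNCCAC, which starts 133 bases before its start, whereas 1.13% of all 35116 RefSeq promoter windows of 300 bases hold one. CCAAT was found in 22 of the 38 windows of the members and in 34.6% of all windows. Counted by gene, 13 of 15 synthesis enzymes had it, all but PMVK and CYP51A1, as did 7 of 13 other members. Some members have several windows, so these counts by gene cannot be set against the share of windows. The E-box occurred in 6 of the 38 windows, those of LSS, SC5D, SCAP, INSIG1 and ABCA1, against 7.26% of all windows. ABCA1, the pump that loads cholesterol onto apolipoproteins, had the only LXR-type repeat among the members. It lay on the strand opposite the gene, 69 bases before the start, and 1.38% of all windows hold such a match. A match is a description of letters and not of binding. ACAT2, FDFT1, SQLE and ABCG1 were not in the table.

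After LPS plus nigericin, 16 of the 31 tested members were lower, 7 were higher and 8 did not pass edgeR's quasi-likelihood test at an adjusted p of 0.05. The background was wide, since 55.3% of the 19170 tested genes were called, 28.9% higher and 26.4% lower. Against that, the count of members called lower is 16 of 31 and the count called higher is 7 of 31. The groups did not overlap for 27 of the 31 tested members, beside 67.0% of all tested genes. The median log2 fold change was −0.40 for the members and 0.00 for all tested genes.

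**Figure D1:**
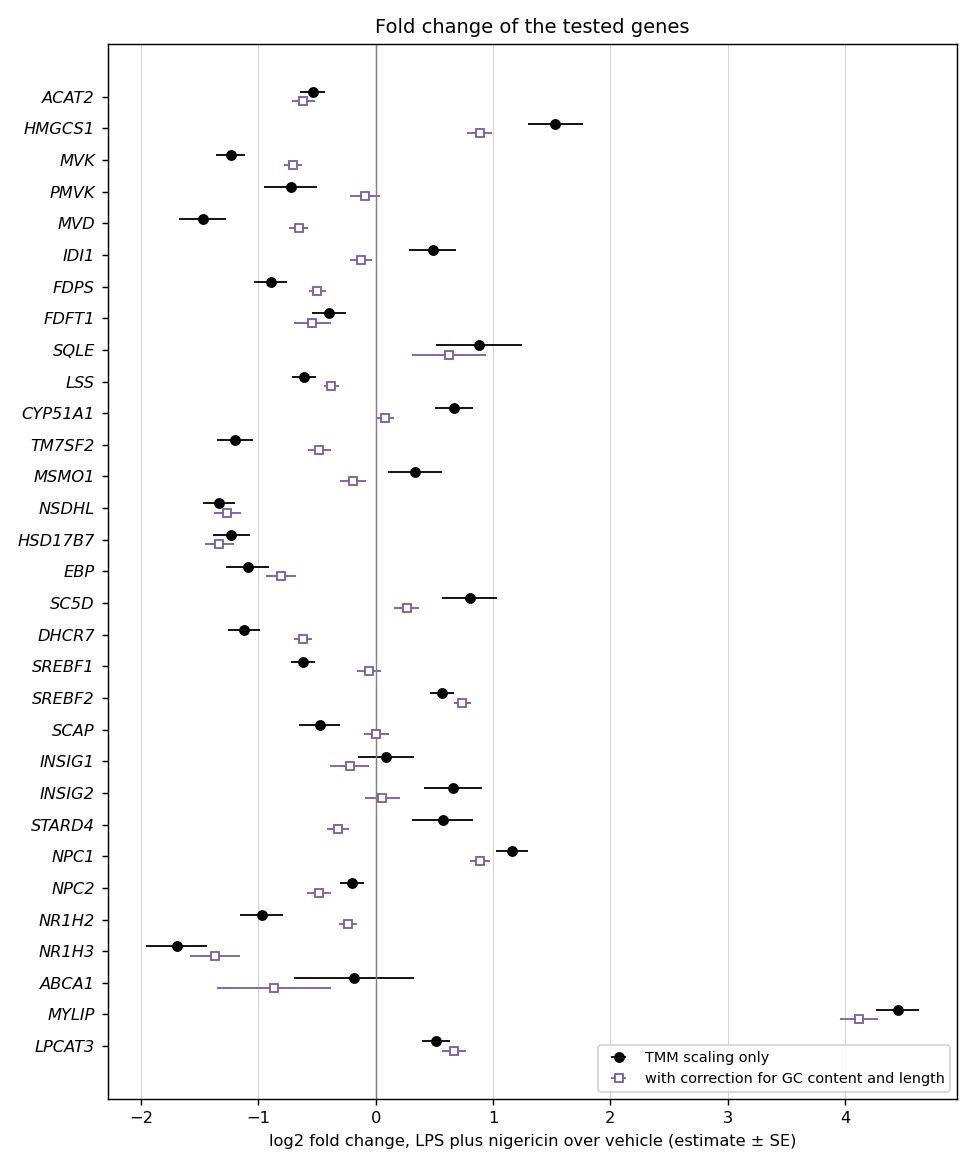
Log2 fold change (LPS plus nigericin over vehicle, x axis) of the 31 tested genes, as estimate ± SE over 3 libraries per group, with TMM scaling (filled circles) and after correction for GC content and transcript length (open squares). MYLIP stands far to the right at 4.45, most synthesis enzymes lie left of 0, and the correction draws many estimates towards 0.

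Fold changes in these libraries moved with the base composition of the transcript, so fold changes are also given after a correction. In 13976 tested protein-coding genes the log2 fold change and the GC content of the longest coding transcript had a Pearson r of −0.42 and a Spearman rho of −0.54, as a description across genes that share the same 6 libraries. The corrected values come from the same test with per-library offsets fitted to GC content and transcript length. Under that correction 50.2% of 18620 genes were called, 23.4% higher and 26.8% lower, and 5 members were higher, 15 lower and 11 did not pass, with a median of −0.23. Levels relative to each gene's mean fell with GC content in every treated library and rose with it in every vehicle library. A trend from library preparation and one from the treatment therefore cannot be told apart. The offsets can also take out treatment differences that go with GC content or length, so neither set of values is taken as the truer. Whether base composition took part in the members' differences was not tested.

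In the mevalonate steps, HMGCS1 rose, 5 of the other 6 enzymes fell and IDI1 did not pass. These are 14.3% higher and 71.4% lower, beside 28.9% and 26.4% of all tested genes. HMGCS1, the synthase that condenses acetyl groups into HMG-CoA (chr5:43289395-43313512, 12 exon blocks), had 91.4, 73.1 and 79.0 CPM in treated libraries, against 27.4, 19.1 and 37.6 CPM in vehicle libraries. Every treated library was above every vehicle library, and the fold change was 2.89 (log2 1.53 ± 0.236 SE, edgeR adjusted p = 0.00122), with a corrected log2 value of 0.89. MVK, which phosphorylates mevalonate, had 29.5, 34.8 and 30.4 CPM after LPS plus nigericin and 75.2, 79.8 and 68.3 CPM with vehicle. It was 2.36-fold lower (log2 −1.24 ± 0.124 SE, edgeR adjusted p = 2.03e-04; corrected −0.71). MVD, the decarboxylase that yields isopentenyl diphosphate, had 56.4, 80.6 and 72.8 CPM in treated and 201, 236 and 148 CPM in vehicle libraries. The groups were far apart and MVD was 2.78-fold lower (log2 −1.48 ± 0.202 SE, edgeR adjusted p = 7.29e-04; corrected −0.66).

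The remaining mevalonate enzymes changed less. FDPS, which makes farnesyl diphosphate, averaged 186 ± 11.7 CPM in treated and 347 ± 54.7 CPM in vehicle libraries (SD, n = 3 each; log2 −0.90, edgeR adjusted p = 0.00118; corrected −0.50). ACAT2, the cytosolic thiolase that joins acetyl-CoA units, averaged 84.8 ± 6.42 CPM in treated and 123 ± 7.32 CPM in vehicle libraries (log2 −0.54, edgeR adjusted p = 0.00426; corrected −0.62). PMVK, the phosphomevalonate kinase, had a log2 value of −0.72 (edgeR adjusted p = 0.0259), which was −0.09 and not called after the correction. The PMVK call was also lost without vehicle library 1 or treated library 1 or 3, at edgeR adjusted p values of 0.0633, 0.0925 and 0.0928. IDI1, the isomerase of isopentenyl diphosphate, had 61.4, 53.2 and 54.2 CPM in treated libraries and 42.8, 28.3 and 49.4 CPM in vehicle libraries. Its groups did not overlap, but the spread among vehicle libraries was wide, and it did not pass (log2 0.49, edgeR adjusted p = 0.0705; corrected −0.12). It passed as higher with DESeq2 (adjusted p = 0.0466) and without vehicle library 3 (edgeR adjusted p = 0.0167).

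Among the 11 enzymes that make and convert squalene and sterols, 7 fell (63.6%), 2 rose (18.2%) and 2 did not pass. The shares of all tested genes were 26.4% lower and 28.9% higher. NSDHL, which decarboxylates the C4 position of the sterol ring (chrX:152830967-152869729, 9 exon blocks), had 67.9, 73.5 and 72.3 CPM in treated and 175, 211 and 154 CPM in vehicle libraries. It was 2.52-fold lower (log2 −1.34 ± 0.136 SE, edgeR adjusted p = 2.15e-04), and its corrected value of −1.26 was close to that. HSD17B7, the ketoreductase that works with NSDHL, had 5.86, 5.91 and 6.40 CPM in treated libraries, against 15.2, 12.2 and 15.3 CPM in vehicle libraries. The treated libraries lay within a narrow range below all vehicle libraries, and HSD17B7 was 2.35-fold lower (log2 −1.23, edgeR adjusted p = 5.45e-04; corrected −1.33). Both of these successive steps of C4 demethylation had lower transcript levels with and without the correction.

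EBP, DHCR7, TM7SF2 and LSS fell as well. EBP, the sterol isomerase, had 49.1, 64.5 and 61.4 CPM in treated and 118, 154 and 101 CPM in vehicle libraries (log2 −1.09 ± 0.180 SE, edgeR adjusted p = 0.00162; corrected −0.81). DHCR7, the reductase that turns 7-dehydrocholesterol into cholesterol, had 122, 129.7 and 127 CPM in treated and 256, 327 and 240.1 CPM in vehicle libraries. Its groups were well separated and it was 2.18-fold lower (log2 −1.12 ± 0.137 SE, edgeR adjusted p = 4.54e-04; corrected −0.62). TM7SF2, a sterol reductase, averaged 14.6 ± 0.396 CPM in treated and 33.4 ± 5.42 CPM in vehicle libraries (SD, n = 3 each; log2 −1.20; corrected −0.48). LSS, which closes the sterol rings, was lower by a smaller margin (log2 −0.61, edgeR adjusted p = 0.00167; corrected −0.38).

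FDFT1, the squalene synthase, had 239, 251 and 235 CPM in treated and 300.2, 387 and 269 CPM in vehicle libraries. Its groups did not overlap, and it passed narrowly (log2 −0.40, edgeR adjusted p = 0.0475; corrected −0.54). The call was lost on leaving out any library but vehicle library 3, with edgeR adjusted p values of 0.0705 to 0.138, and without the count filter at 0.0514. Without vehicle library 2 its log2 value was −0.24.

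CYP51A1, SC5D, SQLE and MSMO1 had estimates in the other direction, and the first pair of them passed. CYP51A1, the lanosterol demethylase, had 90.2, 78.7 and 77.3 CPM in treated and 52.3, 41.1 and 61.6 CPM in vehicle libraries. It was 1.59-fold higher (log2 0.67 ± 0.162 SE, edgeR adjusted p = 0.00915), and 0.08 and not called after the correction. SC5D, a sterol desaturase, had 58.2, 50.4 and 55.6 CPM in treated and 33.5, 20.2 and 40.3 CPM in vehicle libraries (log2 0.80 ± 0.234 SE, edgeR adjusted p = 0.0198; corrected 0.26, not called). That call was also lost without vehicle library 1 or treated library 1 or 3, at edgeR adjusted p values of 0.0511, 0.0696 and 0.0617, and with library totals in place of TMM factors at 0.0662. SQLE, the squalene epoxidase and a rate-limiting step, had 72.4, 59.4 and 65.3 CPM in treated libraries, against 36.0, 16.4 and 54.6 CPM in vehicle libraries. Its lowest treated value was only just above its highest vehicle value, and it did not pass (log2 0.88 ± 0.365 SE, edgeR adjusted p = 0.0708; corrected 0.63, not called). It passed with DESeq2 (adjusted p = 0.0222), and without vehicle library 2 (log2 0.53, edgeR adjusted p = 0.0333) or 3 (log2 1.31, edgeR adjusted p = 0.00587). MSMO1, the methyl oxidase of C4 demethylation, had 81.9, 70.3 and 68.1 CPM in treated and 64.1, 37.3 and 73.2 CPM in vehicle libraries, and it was the only synthesis enzyme whose groups overlapped (log2 0.33, edgeR adjusted p = 0.252; corrected −0.19).

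**Figure D2:**
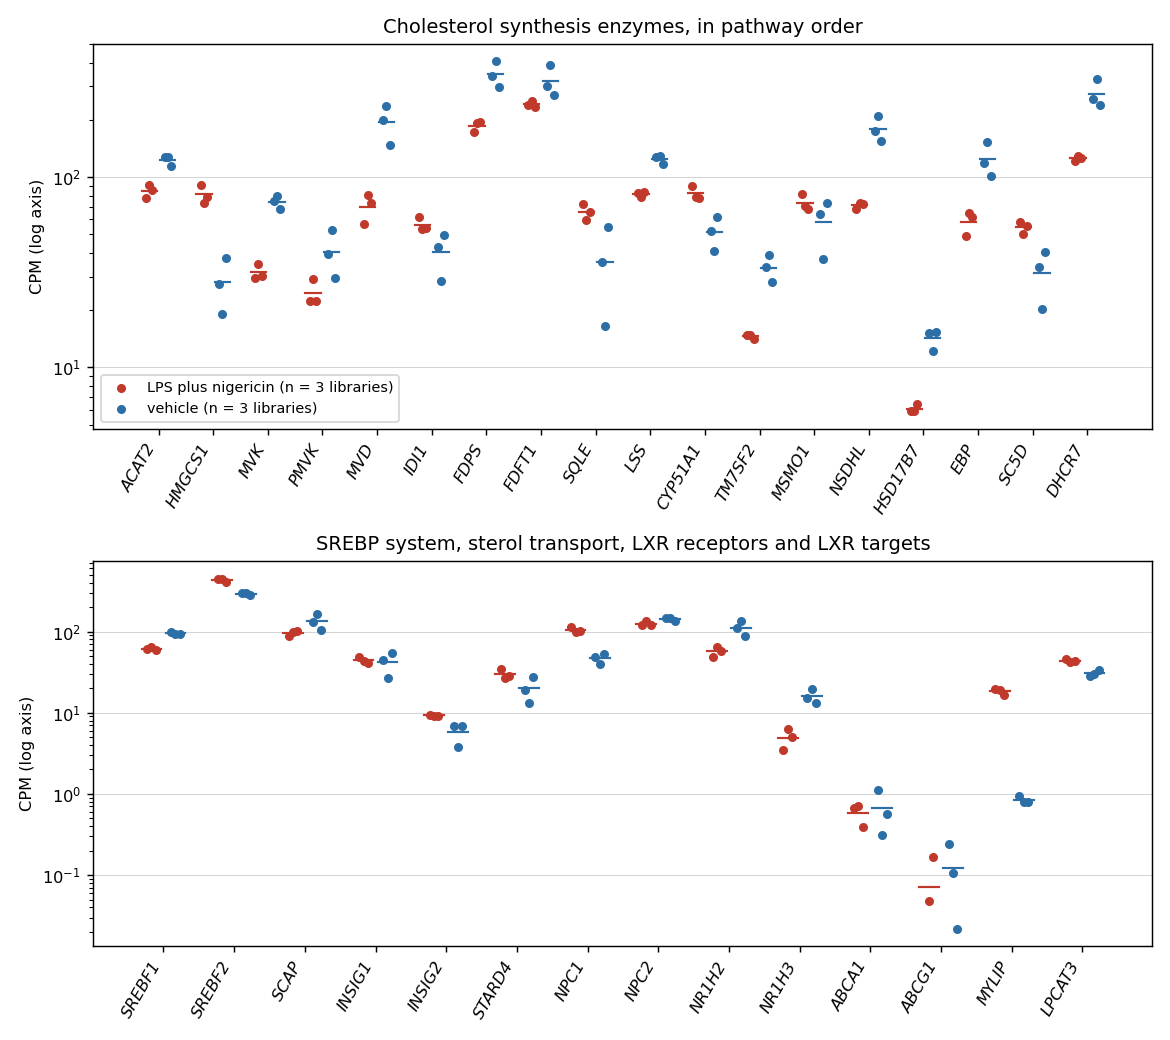
CPM of each gene in each library (points, log axis) with group means (lines), for LPS plus nigericin (left of each pair) and vehicle (right), 3 libraries each. Synthesis enzymes are in pathway order in the upper panel, and a treated ABCG1 library at 0 CPM cannot be drawn on the log axis. MYLIP in the lower panel lies between 16.4 and 19.7 CPM in treated and between 0.790 and 0.942 CPM in vehicle libraries.

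Together the 18 enzymes counted 3 higher (16.7%), 12 lower (66.7%) and 3 not passed, with a median log2 fold change of −0.67. Of all tested genes, 28.9% were higher and 26.4% lower. After the correction 1 was higher (HMGCS1), 11 were lower and the median was −0.49, beside 23.4% higher and 26.8% lower of all genes. Their summed level was 1395, 1430 and 1405 CPM in treated libraries and 2064, 2322 and 1898 CPM in vehicle libraries, a ratio of 0.673. The treated libraries were close together and all below the vehicle libraries. Summed separately, the 12 enzymes that fell had 940.0, 1045 and 1006 CPM in treated and 1808, 2159 and 1581 CPM in vehicle libraries. The 6 with positive estimates had 455, 385 and 399.6 CPM in treated and 256, 163 and 317 CPM in vehicle libraries.

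The vehicle libraries were ordered alike within both sets. In all 6 enzymes with a positive estimate, vehicle library 2 was the lowest of the vehicle libraries and vehicle library 3 the highest. In the 12 enzymes that fell, vehicle library 2 was the highest in 11 and vehicle library 3 the lowest in 11. Across protein-coding genes, a library's deviation from the gene's mean had a Spearman rho with GC content of −0.55, −0.44 and −0.50 in treated libraries and 0.51, 0.62 and 0.20 in vehicle libraries, so vehicle libraries 2 and 3 were also the extremes of their group on that measure. Without vehicle library 3, IDI1 and SQLE passed as higher as well, which made 5 enzymes higher.

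The split among the enzymes followed the GC content of their transcripts. Of 8 enzymes below the protein-coding median of 49.5% GC, 3 were higher and 2 lower, and all 10 at or above it were lower. Among protein-coding genes, 51.7% were higher and 8.76% lower below that median, whereas 14.4% were higher and 47.7% lower at or above it. Over the 18 enzymes, fold change and GC content had a Pearson r of −0.81 and a Spearman rho of −0.76, and −0.46 and −0.48 with the corrected fold change, over points that share the same libraries. When each was set against protein-coding genes in the same GC bin of 2 percentage points, 10 enzymes lay below the lower quartile, 7 lay between the quartiles and 1, HMGCS1, lay above the upper quartile. NSDHL and HSD17B7 had the widest distance below their bin, and CYP51A1, SC5D, IDI1 and SQLE lay between the quartiles.

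**Figure D3:**
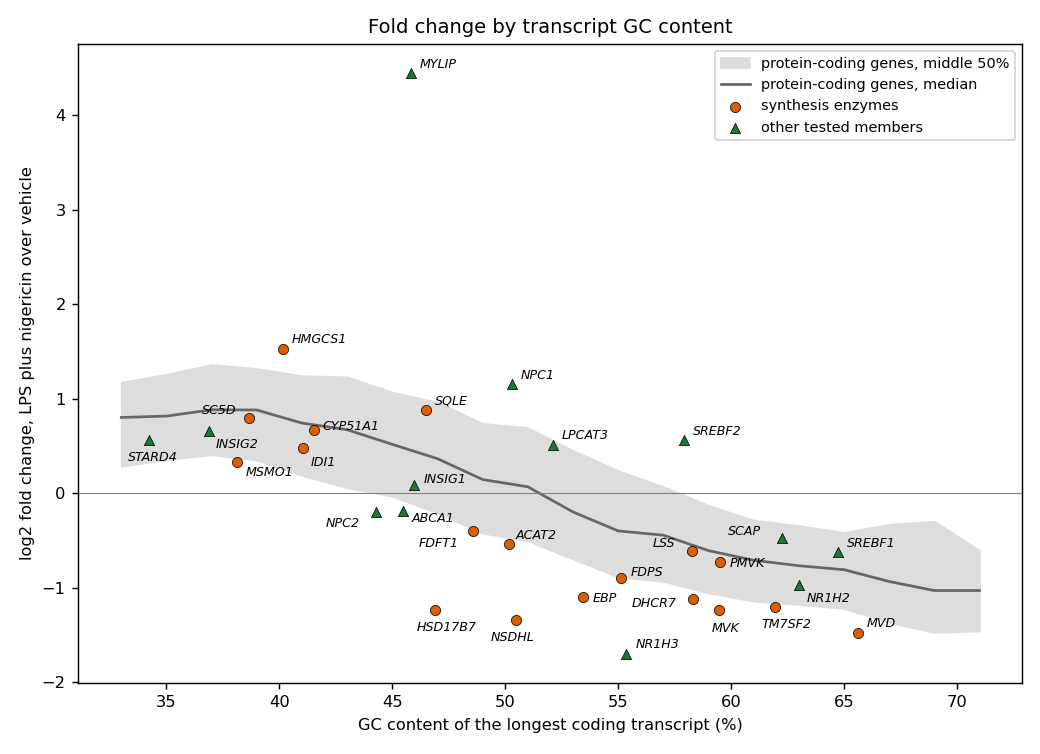
Log2 fold change (LPS plus nigericin over vehicle) against GC content of the longest coding transcript for the 31 tested genes, over the median and quartile band of tested protein-coding genes in bins of GC content. MYLIP, HMGCS1, NPC1, SREBF2 and LPCAT3 lie above the band, and 10 of 18 synthesis enzymes lie below it.

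The genes of the SREBP system did not move as a group, with 1 higher (20%), 2 lower (40%) and 2 not passed of 5. Of all tested genes, 28.9% were higher and 26.4% lower. SREBF2, which encodes SREBP2, the factor that drives the synthesis genes (chr22:41833079-41907308, 24 exon blocks), had 449, 442 and 409 CPM in treated and 299, 296 and 285 CPM in vehicle libraries. It was 1.48-fold higher (log2 0.56 ± 0.0998 SE, edgeR adjusted p = 0.00227; corrected 0.74). SREBF1, which encodes SREBP1, a driver of fatty acid synthesis, had 60.3, 64.6 and 59.9 CPM in treated and 98.3, 93.0 and 92.7 CPM in vehicle libraries. The groups did not overlap and it was 1.54-fold lower (log2 −0.62 ± 0.101 SE, edgeR adjusted p = 0.00154), but its corrected value was −0.06 and not called.

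The partners of SREBP were less clear. SCAP, the escort protein, had 88.1, 99.3 and 101 CPM in treated and 133, 166 and 104 CPM in vehicle libraries (log2 −0.48, edgeR adjusted p = 0.0453). Its corrected value was 0.00, and the call was lost on leaving out any library but vehicle library 3, with edgeR adjusted p values of 0.0820 to 0.140 and a log2 value of −0.30 without vehicle library 2. INSIG1, which holds SCAP in the endoplasmic reticulum when sterols are plentiful and is itself an SREBP target, had 48.9, 43.9 and 40.7 CPM in treated and 44.1, 26.8 and 54.6 CPM in vehicle libraries. Its vehicle libraries spanned the treated ones and it did not pass (log2 0.09 ± 0.240 SE, edgeR adjusted p = 0.772; corrected −0.22, not called). INSIG2, its relative, had 9.43, 9.10 and 9.21 CPM in treated libraries, all above the 6.96, 3.74 and 6.90 CPM of the vehicle libraries, and missed the threshold (log2 0.66, edgeR adjusted p = 0.0519; corrected 0.06). Under DESeq2, a stricter count filter, or without vehicle library 2 or 3, INSIG2 passed, at adjusted p values of 0.0232, 0.0451, 0.0387 and 0.0342.

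Of the 3 sterol transport genes, NPC1 rose (33.3%), close to the 28.9% of all tested genes called higher. NPC1, the membrane protein that exports cholesterol from lysosomes (chr18:23506184-23586898, 26 exon blocks), had 114, 99.6 and 101 CPM in treated and 48.8, 39.7 and 52.4 CPM in vehicle libraries. The groups were far apart, at 2.23-fold higher (log2 1.16 ± 0.137 SE, edgeR adjusted p = 4.00e-04; corrected 0.89). NPC2, the soluble protein that hands cholesterol to NPC1, averaged 124 ± 7.63 CPM in treated and 143 ± 5.39 CPM in vehicle libraries (SD, n = 3 each; log2 −0.20, edgeR adjusted p = 0.126), and its corrected value of −0.48 was called lower. STARD4, a cytosolic sterol carrier, had 34.6, 26.7 and 28.0 CPM in treated and 19.0, 13.3 and 27.8 CPM in vehicle libraries. Its groups overlapped, it did not pass (log2 0.57, edgeR adjusted p = 0.0937), and it turned to −0.32, called lower, after the correction (edgeR adjusted p = 0.0173). Without vehicle library 3 it was 0.87 and called higher (edgeR adjusted p = 0.00569).

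Both liver X receptors fell, beside 26.4% of all tested genes. NR1H3, which encodes LXR-alpha (chr11:47248300-47269032, 11 exon blocks), had 3.46, 6.38 and 4.96 CPM in treated and 15, 19.9 and 13.2 CPM in vehicle libraries. It was 3.24-fold lower (log2 −1.70 ± 0.260 SE, edgeR adjusted p = 0.00118; corrected −1.37), with the widest fall of all tested members. NR1H2, which encodes LXR-beta, had 49.0, 64.7 and 56.9 CPM in treated and 109.8, 136 and 88.8 CPM in vehicle libraries. It was 1.96-fold lower (log2 −0.97 ± 0.179 SE, edgeR adjusted p = 0.00273), and lower by less, −0.23 and still called, after the correction.

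Of the 4 LXR targets, MYLIP and LPCAT3 were higher, ABCA1 did not pass at low counts and ABCG1 could not be tested. That is 66.7% of the 3 tested, beside 28.9% of all tested genes called higher. MYLIP, a ubiquitin ligase that marks lipoprotein receptors for degradation (chr6:16129125-16148248, 7 exon blocks), had 19.7, 19.2 and 16.4 CPM in treated and 0.942, 0.800 and 0.790 CPM in vehicle libraries, from 1305, 1605 and 1380 counts against 86, 61 and 72. It was 21.8-fold higher (log2 4.45 ± 0.182 SE, edgeR adjusted p = 1.33e-05), 4.12 after the correction, and between 4.39 and 4.53 when each library was left out in turn. ABCA1 stayed under 2 CPM throughout, with 44, 59 and 33 counts in treated and 103, 24 and 51 counts in vehicle libraries. Its groups overlapped and it did not pass (log2 −0.19 ± 0.511 SE, edgeR adjusted p = 0.777; corrected −0.87, not called), and its vehicle libraries were farther apart than the groups' means. ABCG1, a pump that exports cholesterol to lipoprotein particles, had 0, 4 and 14 counts in treated and 22, 8 and 2 counts in vehicle libraries, too few to test. The count of 0 allows up to 3 counts, or 0.0453 CPM in that library, for counting error only.

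LPCAT3, which loads polyunsaturated fatty acids into phospholipids, had 46.2, 42.3 and 42.9 CPM in treated and 28.5, 30.2 and 33.3 CPM in vehicle libraries. It was 1.43-fold higher (log2 0.51 ± 0.119 SE, edgeR adjusted p = 0.00742; corrected 0.67). Its exons share 3100 bases with those of EMG1, a ribosome biogenesis factor on the opposite strand, which fell (log2 −0.58, corrected −0.84).

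The summed level of the synthesis enzymes was lower, and the sum of MYLIP, ABCA1 and ABCG1 was higher through MYLIP alone. The 18 synthesis enzymes stood at a treated to vehicle ratio of 0.673, while MYLIP, ABCA1 and ABCG1 together had 17 to 20.4 CPM in treated and 1.22 to 2.31 CPM in vehicle libraries, a ratio of 11.7. MYLIP made up nearly all of the second sum in treated libraries, so the ratio describes MYLIP. ABCA1 and ABCG1, the export pumps of the set, had 0.588 ± 0.171 and 0.0715 ± 0.0858 CPM in treated and 0.668 ± 0.417 and 0.123 ± 0.111 CPM in vehicle libraries (SD, n = 3 each). SREBF2 transcripts were higher while most of the enzymes that SREBP2 is known to drive were lower, and both receptors were lower while MYLIP was higher.

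Per kilobase of the longest coding transcript, FDPS was the most abundant member in both groups, at 126 CPM per kb in treated and 235 CPM per kb in vehicle libraries. FDFT1 was next, at 90.9 CPM per kb in treated and 120 CPM per kb in vehicle libraries. HMGCS1 ranked 13 of 32 in treated and 26 of 32 in vehicle libraries on this scale. MVD ranked 6 in treated and 3 in vehicle libraries, and SREBF2 ranked 4 in treated and 9 in vehicle libraries. ABCA1 and ABCG1 were the lowest in both groups, at 0.0561 and 0.0206 CPM per kb in treated and 0.0636 and 0.0353 CPM per kb in vehicle libraries.

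Some members share exon sequence with another gene, and no source here states whether counting used strand, so reads there cannot be assigned with certainty. In GENCODE 29, 15 of the 32 members share at least 50 exon bases with another gene. ACAT2 shares 397 bases with TCP1, a chaperonin subunit that rose (log2 0.97, corrected 0.57), while ACAT2 itself fell. It also shares 1458 bases with SOD2-OT1, which held at most 84 counts in any library, and 1141 bases with SOD2, which was not analysed here. NPC1 shares 604 bases with RMC1, which rose less (log2 0.59, corrected 0.45). MVK and NPC2 share 306 and 103 bases with MMAB (log2 −0.56, corrected −0.63) and ISCA2 (log2 −1.19, corrected −1.64), which fell, and SREBF1 and NR1H3 share 556 and 189 bases with RAI1 (log2 −0.24, corrected −0.09) and ACP2 (log2 −0.35, corrected 0.16), which did not pass. The MMAB call was lost without treated library 1 or 3, RAI1 passed as lower without vehicle library 2, and ACP2 did so without vehicle library 3 or with library totals in place of TMM factors. STARD4-AS1 and CYP51A1-AS1 stayed under 1 CPM in every library, MIR4709 had 1 count in each, and the loci with clone names only that were in the table had at most 35 counts. TM7SF2 shares 16 bases with VPS51.

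The antisense transcripts of 3 members changed by more than the members did, at far lower levels. SREBF2-AS1 averaged 2.70 ± 0.764 CPM in treated and 0.213 ± 0.126 CPM in vehicle libraries (log2 3.67, corrected 4.10). IDI2-AS1, which shares 643 bases with IDI1, averaged 4.79 ± 0.601 CPM in treated and 0.196 ± 0.0699 CPM in vehicle libraries (log2 4.58, corrected 4.59). RUSC1-AS1, which shares 693 bases with FDPS, averaged 2.51 ± 0.326 CPM in treated and 13.2 ± 1.58 CPM in vehicle libraries (log2 −2.40, corrected −2.30; SD, n = 3 each throughout). Among the 10 enzymes that share fewer than 50 exon bases with any gene, 1 was higher (10%) and 7 were lower (70%), with a median of −1.11. The shares of all tested genes were 28.9% higher and 26.4% lower. After the correction, 0 of these enzymes were higher and 6 lower, with a median of −0.55, beside 23.4% higher and 26.8% lower of all genes. HSD17B7 has a transcribed copy, HSD17B7P2, with 389, 487 and 584 counts in treated and 468, 374 and 418 counts in vehicle libraries, beside 388, 493 and 538 treated and 1391, 928 and 1391 vehicle counts of the gene itself, and reads split between the copies make its values uncertain. The named pseudogenes of FDPS and CYP51A1 that were in the table held at most 37 counts in any library.

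Of 67 further genes of connected pathways, 65 were tested and 28 were higher (43.1%), 17 lower (26.2%) and 20 did not pass, beside 28.9% higher and 26.4% lower of all tested genes. After the correction, 18 were higher and 18 lower, and 14 of the 65 estimates had turned sign, 5 of them in genes called before it. Of all 18620 genes with corrected values, 23.4% were higher and 26.8% lower, which is the background for the corrected counts of each list below. In the list of SREBP processing and sterol sensing, 9 of 11 were higher (81.8%), with a median log2 fold change of 0.95 that was 0.30 after the correction, when 7 were higher and 2 lower. RNF145, a ubiquitin ligase that acts on SCAP, averaged 95.6 ± 6.68 CPM in treated and 31.7 ± 6.87 CPM in vehicle libraries (log2 1.59, edgeR adjusted p = 2.78e-04; corrected 1.16). MBTPS2, the protease that makes the second cut of SREBP, rose by 1.48 and MARCHF6, a ligase that degrades sterol enzymes, by 1.21 on the log2 scale, with corrected values of 0.60 and 0.30.

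The list of fatty acid synthesis genes controlled by SREBP1 was split, with 6 higher, 4 lower and 4 not passed of 14 (42.9% higher and 28.6% lower, the second close to the background), and 3 higher and 6 lower after the correction. ACLY, which supplies cytosolic acetyl-CoA, averaged 273 ± 30.9 CPM in treated and 139 ± 25.6 CPM in vehicle libraries (log2 0.97, edgeR adjusted p = 0.00161; corrected 0.90). ACACA, the carboxylase (log2 0.83, corrected 0.23, not called), and ACSL3, an acyl-CoA synthetase (log2 1.42, corrected 0.51), were also higher. MID1IP1, an activator of acetyl-CoA carboxylase, averaged 23.2 ± 1.06 CPM in treated and 57.6 ± 3.72 CPM in vehicle libraries (log2 −1.31, edgeR adjusted p = 1.32e-04; corrected −1.07). FADS2 (log2 −0.90, corrected −0.42), ACSS2 (log2 −0.48, corrected −0.25) and SCD (log2 −0.35, corrected −0.84) were the others that fell, SCD being named after its value was seen. SCD passed narrowly (edgeR adjusted p = 0.0498), and its call was lost with library totals or no count filter (0.0615 and 0.0630), and on leaving out vehicle library 1, vehicle library 3, treated library 2 or treated library 3 (0.0882 to 0.176).

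In sterol transport and storage, 4 of 16 were higher (25%), 3 lower (18.8%) and 9 did not pass. Of all tested genes, 28.9% were higher and 26.4% lower, and 16 genes are too few to set these shares apart. The shares of the other lists were not tested against those of all genes either. After the correction, 2 were called in each direction. NCEH1, a cholesterol ester hydrolase, averaged 78.1 ± 11.1 CPM in treated and 20.2 ± 11.1 CPM in vehicle libraries (log2 1.95, edgeR adjusted p = 0.00388; corrected 1.25). CAV1, the coat protein of caveolae (log2 0.87, corrected 0.54), SCARB2, a lysosomal membrane protein (log2 0.90, corrected 0.17, not called), and SOAT1, which esterifies cholesterol (log2 1.05, corrected 0.13, not called), were the others that rose. SOAT1 was named after its value was seen. GRAMD1A, STARD3 and SCARB1 fell, by 0.72, 0.53 and 0.40 on the log2 scale, and with corrected values of −0.08, 0.09 and −0.07 none of them was called. The SCARB1 call was also lost without vehicle library 1 or treated library 1 or 3, at edgeR adjusted p values of 0.125, 0.0996 and 0.109.

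Among LXR partners and other targets, 1 of 8 tested genes rose (12.5%) and 4 fell (50%), beside 28.9% and 26.4% of all tested genes. After the correction 2 were higher and 3 lower, beside 23.4% and 26.8% of all genes. The median of −0.54 was 0.02 after the correction. MERTK, a receptor kinase, rose (log2 1.45, corrected 1.15) at a low level of 4.89 ± 1.15 CPM in treated and 1.78 ± 0.692 CPM in vehicle libraries. RXRB, a partner receptor of LXR (log2 −0.80, corrected −0.32), PLTP, a phospholipid transfer protein (log2 −0.86, corrected −0.26, not called), and ABCG4, a sterol pump under 2 CPM (log2 −1.72, corrected −1.27), were among those that fell, ABCG4 being named after its value was seen. Its call was lost without vehicle library 1 or treated library 2, at edgeR adjusted p values of 0.0523 and 0.0527.

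In the isoprenoid branches, which use products of the mevalonate steps, 8 of 16 were higher (50%) and 5 lower (31.2%). The shares of all tested genes were 28.9% and 26.4%, so the share called lower was close to the background. The median was 0.15. After the correction 4 were higher and 5 lower, beside 23.4% and 26.8% of all genes, with a median of −0.05. RABGGTB, the beta subunit of the enzyme that prenylates Rab proteins, averaged 132 ± 4.25 CPM in treated and 23.8 ± 3.94 CPM in vehicle libraries (log2 2.47, edgeR adjusted p = 3.22e-05; corrected 2.02). CHM, the Rab escort protein that presents its substrates, rose by 2.06 on the log2 scale (corrected 1.15), whereas RABGGTA, the alpha subunit, was lower (log2 −0.78, corrected −0.13, not called). FNTA, a subunit of farnesyltransferase, rose (log2 0.87, corrected 0.57), and its partner FNTB fell (log2 −0.60, corrected −0.38). DOLK and DHDDS, of dolichol synthesis, fell too (log2 −1.10 and −0.80, corrected −0.63 and −0.71). RCE1, a protease of prenylated proteins, was lower (log2 −0.51) but turned to 0.15 and was not called after the correction. FNTB and RCE1 were named after their values were seen. The FNTB call was lost without treated library 1 (edgeR adjusted p = 0.0547), and the RCE1 call without vehicle library 1 or treated library 1 or 3 (0.0640, 0.0682 and 0.0502).

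**Figure D4:**
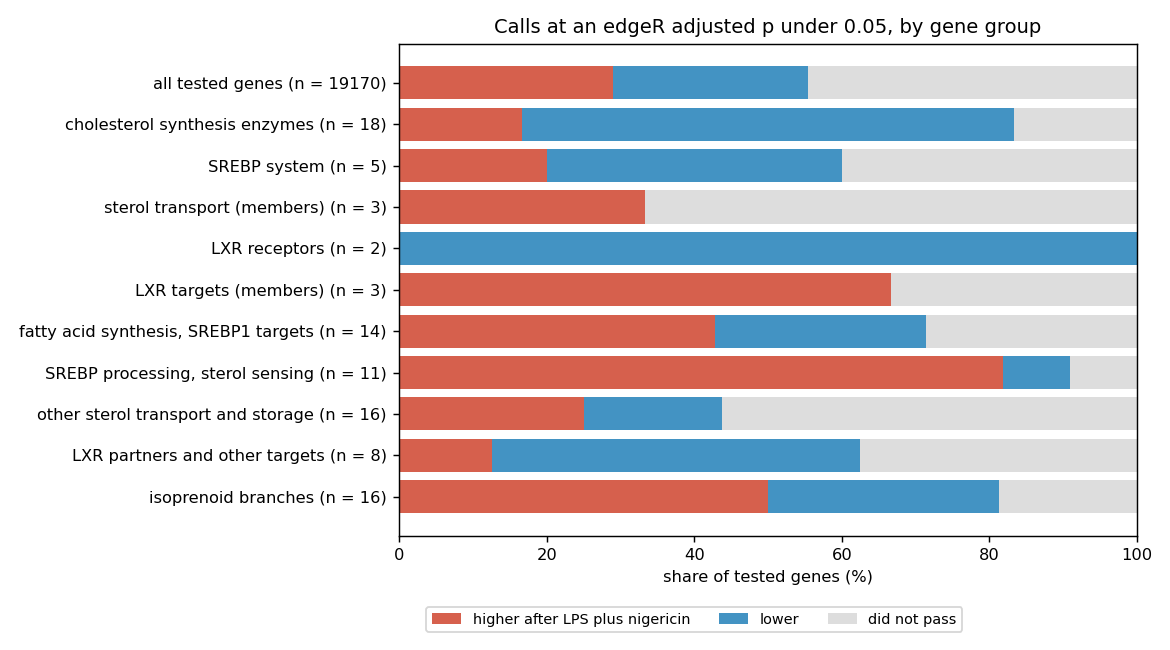
Share of tested genes (x axis, %) called higher, called lower or not passed after LPS plus nigericin at an edgeR adjusted p under 0.05, by gene group, with all 19170 tested genes at the top. The synthesis enzymes have 12 of 18 lower, and SREBP processing and sterol sensing has 9 of 11 higher.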

How the data were processed

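RNA of 6 libraries was measured as raw counts per Ensembl gene, which the authors deposited as whole numbers with a column for each library, per the file headers. The build was hg38, per the submitters' processing notes, and no source used here names the aligner, counter or strand setting. Of 37871 genes, 37840 identifiers matched a symbol, and 0 columns belonged to no sample. Genes were filtered with filterByExpr, scaled with TMM factors and tested with edgeR 4.0.16 (robust quasi-likelihood F test, R 4.3.3), Benjamini-Hochberg adjusted over all 19170 tested genes at 0.05. SE was derived from the fold change and its F statistic. The corrected values used offsets for each library from a loess surface (span 0.3) over GC content and length of the longest coding transcript in GENCODE 29, on the same assembly.

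The alternatives were RLE factors, library totals, DESeq2 1.42.0, no filter, a filter of 1 CPM in 3 libraries, blocking on replicate number, the correction, and leaving out each library. The members and lists were chosen with earlier results of these data known. Text names all members, genes whose exons overlap them (loci with clone names only as a group), and the 3 called genes with the smallest p in each direction of each list, apart from 2 that are not reported here. Python 3.11.15 and matplotlib 3.10.9 drew the figures. Replicate pairs differed by 22.6 to 187 chi-square per degree of freedom, far more than sampling noise.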

Additional observations from a re-analysis of the deposited data

How the results depend on the processing

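The count of all called genes was 10610 and ranged over 8341 to 11438 across the alternatives. Of the members, 7 were higher, and 6 to 11 when each library was left out, with 11 without vehicle library 3. The members called lower, 16, were 13 to 16 on leaving out a library, and the synthesis enzymes called lower, 12, were 10 to 12. The 3 synthesis enzymes called higher became 5 with DESeq2, 1 with the GC content and length correction, and 2 to 5 on leaving out a library, with 5 without vehicle library 3. The median log2 fold change of the enzymes was −0.67, −0.49 with the correction and −0.79 to −0.55 on leaving out a library. Among genes named in the text, the correction turned the sign of IDI1 (−0.12), MSMO1 (−0.19), SCAP (0.0048), INSIG1 (−0.22), STARD4 (−0.32), STARD3 (0.094), RCE1 (0.15) and ACP2 (0.16). On leaving out a library, INSIG1 ranged over −0.15 (without vehicle library 2) to 0.32, and ABCA1 over −0.53 to 0.42 (without vehicle library 1), with 0.03 without treated library 3. The cause of these changes was not tested. Without a count filter the median over all genes moved to 0.10. ABCG1 was too low to test.

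The libraries share replicate numbers 1 to 3, but same-numbered libraries did not deviate together, with correlations of −0.02, 0.10 and −0.02 of their deviations from the group means, so the numbers are not taken as pairs. With the replicate block, 11 members and 5 synthesis enzymes were higher, and 10408 of all genes were called.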
